A study of Oryctolagus cuniculus with 6 samples.

Results

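The genes described here build and move the motile cilium. They are the 54 rows of the deposited gene table, of 29587 in all, whose symbol marks an axonemal dynein heavy, intermediate or light chain (DNAH, DNAI, DNAL, DNALI), a dynein assembly factor (DNAAF), a cilia and flagella associated protein (CFAP), a radial spoke protein (RSPH), a tektin (TEKT) or a subunit of the nexin-dynein regulatory complex (DRC), together with CCDC39, SPAG6, SPAG17, HYDIN and FOXJ1. CCDC40 belongs to the same set by name but has no row under that symbol, so it was not analysed here. The members were chosen by symbol and not by a cut on their measured values, though with earlier results of these data known.

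Multiciliated cells of the airway carry on their surface a field of motile cilia that beat to move mucus. The core of each cilium, the axoneme, is a ring of doublet microtubules around a central pair: outer dynein arms drive the beat, inner arms shape it, radial spokes and the central apparatus pass signals to the arms, and the nexin-dynein regulatory complex links neighbouring doublets. Tektins and other proteins line the inside of the doublets, assembly factors fold the dyneins in the cytoplasm before they are carried into the cilium, and FOXJ1 is the transcription factor that switches on many of these genes in ciliating cells.

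The animals were New Zealand rabbits 3 months of age, and polyA RNA of the tracheal lining was read on a DNBSEQ-T7. In the high cuff pressure group (3 libraries) a 3.0 mm tube was placed in the trachea to a depth of 13 cm, and its inflatable cuff was kept at 35 cmH2O for 2 h. In the control group (3 libraries) the labels give the same strain and age but not whether a tube was placed, and for neither group do they give the time from the procedure to sampling. By label the cell type is epithelial, by extraction protocol the source is the mucosa as a whole, and all 6 libraries carry the same batch label.

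Library totals ran from 10501734 to 14415754 counts. Levels are given as CPM, counts scaled to the library total and a TMM factor, and the detection floor of 3 counts is 0.193 to 0.353 CPM, depending on the library. Mitochondrial genes held 27.8% to 30.5% of counts with high cuff pressure and 5.28% to 11.5% in controls. Summed over fixed marker lists, the 5 measured neutrophil genes stood at 635 to 2495 CPM with high cuff pressure and 3.86 to 21.1 CPM in controls, and the 4 epithelial genes at 1649 to 1845 CPM with high cuff pressure and 1214 to 1336 CPM in controls. Within the epithelial list only KRT8 had groups that did not overlap (log2 fold change 0.88), and ELF3 (0.44), CDH1 (-0.11) and EPCAM (-0.34) overlapped, so the sum is no measure of the epithelial share. Smooth muscle genes (4 measured) stood at 409, 3545 and 6201 CPM in high cuff pressure libraries 1, 2 and 3, against 5997, 7930 and 4784 CPM in control libraries 1, 2 and 3. Fibroblast genes (5 measured) stood at 166, 537 and 851 CPM in high cuff pressure libraries 1, 2 and 3, against 680, 1097 and 734 CPM in control libraries 1, 2 and 3. Markers of other layers were thus present in every library. Of the 3 measured testis genes, which mark the other tissue rich in axonemal genes, PRM1 and TNP1 had no count in any library, and ODF1 had 0 in every high cuff pressure library and 1, 2 and 0 counts in control libraries 1, 2 and 3.

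The summed level of the members was 10766, 7732 and 4132 CPM in high cuff pressure libraries 1, 2 and 3, against 9432, 11682 and 13005 CPM in control libraries 1, 2 and 3. Lowest of all 6 was high cuff pressure library 3, and high cuff pressure library 1 lay inside the control range, so the groups overlapped. As a share of all counts, the members held 0.961%, 0.626% and 0.378% in the high cuff pressure libraries and 0.972%, 1.42% and 1.56% in the controls. In bulk tissue, fewer ciliated cells and less of these RNAs per ciliated cell cannot be told apart.

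Of the 54 members, 53 passed the filter on low counts. DNAH8, an outer arm heavy chain known from sperm flagella, had 1 count in high cuff pressure library 1 and 0 in the other 5 libraries, which is below the floor, and was not tested. No member passed the threshold of an adjusted p of 0.05 in edgeR's quasi-likelihood test, lower or higher, where 1.62% of the 13724 genes tested passed as lower and 3.67% as higher. The smallest adjusted p among the members was 0.054, for CFAP97. At an unadjusted p under 0.05, 13 members were lower with high cuff pressure, or 24.5% of those tested against 13.6% of all genes, and 0 were higher, against 15.6% of all genes. The 13 became 26, 7 and 8 without high cuff pressure libraries 1, 2 and 3, each left out in turn, and 6 without control library 3, where 18.4%, 10.02%, 11.8% and 7.94% of all genes were lower in the same fits, and 3 members were higher at that level without high cuff pressure library 3, against 15.04% of all genes. DESeq2 called 8 members lower and 0 higher. Of the 13690 genes with a DESeq2 adjusted p, 1170 (8.55%) were called lower and 1461 higher. Whether a member is counted as lower therefore depended on the test.

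The direction of the estimates leaned one way. The log2 fold change, high cuff pressure over control, was below 0 for 47 of 53 members (88.7%, against 50.5% of all genes tested) and at or below -1 for 15 (28.3%, against 10.8%), and the median was -0.45 over the members and -0.01 over all genes tested. For 18 members (34.0%, against 18.7%) every high cuff pressure library lay below every control, and for 0 members did every high cuff pressure library lie above every control, against 18.6% of all genes. Members share a cell type and are not independent of each other, so these shares are descriptions and carry no test.

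Library by library, the lean was uneven. Of the 53 tested members, 21, 30 and 50 lay below all controls in high cuff pressure libraries 1, 2 and 3, while 13, 11 and 0 lay above all controls. Of all genes tested, 35.3%, 41.1% and 37.2% lay below all controls in the same libraries and 31.8%, 39.8% and 38.3% above, so the members' count below in library 1 was near that of all genes and the count in library 3 far above it. High cuff pressure library 3 was the lowest of the 6 for 48 members, and control library 3 was the highest for 27. The median difference of the members from the control mean was -0.13, -0.46 and -1.42 on the log2 scale in high cuff pressure libraries 1, 2 and 3, against -0.18, -0.03 and 0.23 in control libraries 1, 2 and 3. Leaving out high cuff pressure library 3 moved the median log2 fold change of the members to -0.18, with 32 of 53 below 0, while leaving out high cuff pressure library 1 moved it to -0.89, and 18 members then passed as lower, where 8.97% of all genes in that fit did, DNAH5, CCDC39, DNAH12, SPAG17, CFAP43 and RSPH4A among them. High cuff pressure library 3 also had the highest summed level of the 4 measured basal cell genes, at 468, 997 and 2546 CPM in high cuff pressure libraries 1, 2 and 3, against 400, 362 and 192 CPM in control libraries 1, 2 and 3. Most of that sum was KRT5, at 387, 945 and 2374 CPM in high cuff pressure libraries 1, 2 and 3. Only KRT5 had groups that did not overlap (log2 fold change 2.38). ITGA6 (0.81), TP63 (0.03) and NGFR (0.006) overlapped, though each was highest in high cuff pressure library 3. The sum is therefore no measure of the basal cell share. None of the 4 basal genes passed the test. The smooth muscle and fibroblast sums also rose from high cuff pressure library 1 to library 3, while the members' sum fell. The neutrophil sum fell too, at 2495, 1335 and 635 CPM in high cuff pressure libraries 1, 2 and 3. In the controls the smooth muscle and fibroblast sums were highest in library 2, where the members' sum was not. The part of basal, neutrophil, smooth muscle, fibroblast or mitochondrial RNA in the members' levels was not tested.

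**Figure D1:**
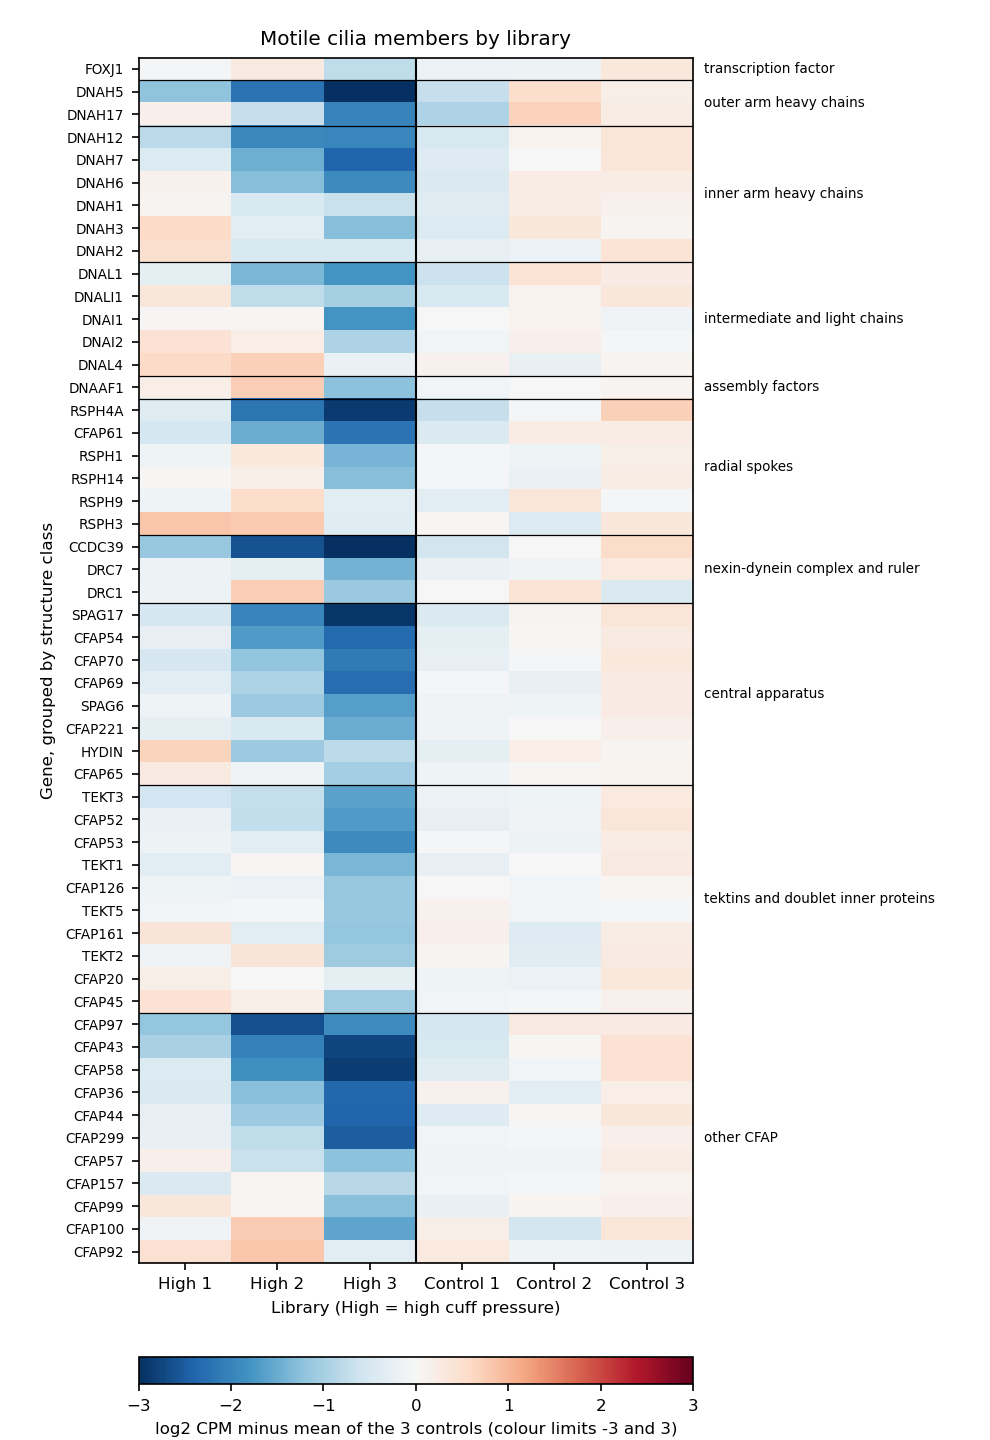
Heat map of the 53 tested members (rows, grouped by structure class and ordered by log2 fold change within a class) in the 6 libraries (columns, high cuff pressure left of control). Colour gives log2 CPM minus the mean of the 3 controls, with limits at -3 and 3. The third high cuff pressure column is lowest for 48 of 53 members, and the first holds 13 members above all controls.

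FOXJ1, the regulator, did not stand apart between groups. It had 308, 386 and 186 CPM in high cuff pressure libraries 1, 2 and 3, against 283, 286 and 397 CPM in control libraries 1, 2 and 3. The high cuff pressure values enclosed all but the highest control, with library 2 high and library 3 low, and the log2 fold change was -0.13 ± 0.32 (adjusted p = 0.81). Per kb of gene model, FOXJ1 averaged 102 ± 35.04 CPM per kb with high cuff pressure and 112 ± 22.8 CPM per kb in controls (SD, n = 3 each). Over the 6 libraries, the log2 CPM of the other 52 tested members correlated with that of FOXJ1 with a Pearson r between 0.15 and 0.95 (median 0.65). Among 9332 genes with a symbol and a mean of at least 5 CPM, the median of that r was -0.03. The 5 most like FOXJ1 were ARMC9 (0.996), TCP11 (0.985), TTC25 (0.980), B9D1 (0.973) and CCDC189 (0.968). None of them is a member, though TTC25 is in the list of other motile cilia genes described below. With 6 libraries and so many candidates, these values only order the genes.

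Outer arm heavy chains are the large motor subunits that power the beat. DNAH5, whose loss in people stops cilia and causes primary ciliary dyskinesia, had 408, 201 and 109 CPM in high cuff pressure libraries 1, 2 and 3, against 576, 1339.6 and 1062 CPM in control libraries 1, 2 and 3. All 3 high cuff pressure values were below all 3 controls, with library 1 nearest to them, and the log2 fold change was -2.05 ± 0.53 (adjusted p = 0.062) with edgeR and -2.05 with DESeq2 (adjusted p = 0.0014). DNAH5 was also the highest outer arm heavy chain per length, at 18.1 ± 11.5 CPM per kb with high cuff pressure and 74.9 ± 29.2 CPM per kb in controls (SD, n = 3 each). DNAH17, an outer arm heavy chain best known from sperm, had 125, 69.6 and 27.7 CPM in high cuff pressure libraries 1, 2 and 3, against 58.8, 182 and 131 CPM in control libraries 1, 2 and 3. The groups overlapped, and the log2 fold change was -0.74 ± 0.57 (adjusted p = 0.41).

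The intermediate and light chains of the dynein arms ranged in log2 fold change from -1.10 to 0.41. DNAI1, an intermediate chain of the outer arm, had 367, 373 and 104 CPM in high cuff pressure libraries 1, 2 and 3, against 359.7, 391 and 333 CPM in control libraries 1, 2 and 3. High cuff pressure library 3 lay far below the narrow control range and libraries 1 and 2 inside it, and the log2 fold change was -0.36 ± 0.45 (adjusted p = 0.62). DNAI2, the partner intermediate chain, had 203, 174 and 79.1 CPM in high cuff pressure libraries 1, 2 and 3, against 143, 167 and 145 CPM in control libraries 1, 2 and 3. Libraries 1 and 2 of the high cuff pressure group lay above all controls and library 3 below them, and the log2 fold change was 0.004 ± 0.34. DNAL1, a light chain that binds the outer arm heavy chain, was scarce, with 10.2, 4.71 and 3.49 CPM in high cuff pressure libraries 1, 2 and 3, against 7.86, 16.7 and 14.7 CPM in control libraries 1, 2 and 3. High cuff pressure library 1 lay among the controls, and the log2 fold change was -1.10 ± 0.48 (adjusted p = 0.17). DNAL4, another light chain, had 34.4, 38.5 and 20.2 CPM in high cuff pressure libraries 1, 2 and 3, against 25.3, 20.01 and 24.7 CPM in control libraries 1, 2 and 3. Libraries 1 and 2 of the high cuff pressure group lay above all controls and library 3 among them, and the log2 fold change was 0.41 ± 0.29 (adjusted p = 0.38), turning just below 0 on the deposited FPKM. DNALI1, a light chain of inner arms, had a log2 fold change of -0.39 ± 0.40 and overlapping groups.

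Inner arm heavy chains shape the bend of the cilium. All 6 that were tested had negative estimates, with a median log2 fold change of -0.57, but they spread widely. DNAH12, which forms a single-headed inner arm, had 139.9, 64.6 and 63.5 CPM in high cuff pressure libraries 1, 2 and 3, against 177, 267 and 316 CPM in control libraries 1, 2 and 3. Every high cuff pressure value was below every control, and the log2 fold change was -1.51 ± 0.38 (adjusted p = 0.06) with edgeR and -1.51 with DESeq2 (adjusted p = 0.0039). DNAH7 had 153, 73.3 and 38.6 CPM with high cuff pressure and 155, 205 and 259 CPM in controls, again without overlap though library 1 came within 2 CPM of the lowest control, and a log2 fold change of -1.23 ± 0.47 (adjusted p = 0.14). DNAH2, a heavy chain of the double-headed inner arm and the highest of this class per length, had 668, 349.8 and 344 CPM in high cuff pressure libraries 1, 2 and 3, against 403, 424 and 633 CPM in control libraries 1, 2 and 3. The groups overlapped through high cuff pressure library 1, the highest of the 6, and the log2 fold change was -0.10 ± 0.35 (adjusted p = 0.88). DNAH6, DNAH1 and DNAH3 overlapped between groups, with log2 fold changes of -0.80 ± 0.51, -0.33 ± 0.29 and -0.17 ± 0.44.

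DNAAF1, a cytoplasmic factor needed to preassemble the arms and the only assembly factor with a row, had 163, 236 and 59.4 CPM in high cuff pressure libraries 1, 2 and 3, against 133, 139.96 and 149.6 CPM in control libraries 1, 2 and 3. Its high cuff pressure libraries held both extremes, library 2 the highest and library 3 the lowest of the 6, around a tight control group, and the log2 fold change was 0.12 ± 0.44 (adjusted p = 0.89). Under total-count scaling, on the deposited FPKM, with limma-voom and without high cuff pressure library 2 its direction turned.

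Radial spokes reach from the doublets to the central pair. RSPH4A, a protein of the spoke head, had 109, 30.4 and 18.9 CPM in high cuff pressure libraries 1, 2 and 3, against 86.9, 135 and 231 CPM in control libraries 1, 2 and 3. High cuff pressure library 1 lay between control libraries 1 and 2 while libraries 2 and 3 were below every control, and the log2 fold change was -1.52 ± 0.66 (adjusted p = 0.17), or -2.61 without high cuff pressure library 1 (adjusted p = 0.019). Of the other spoke head proteins, RSPH1 had a log2 fold change of -0.25 ± 0.40 and RSPH9 one of 0.05 ± 0.30, the second turning negative under total-count scaling and on the deposited FPKM, and both had overlapping groups. RSPH3, a protein of the spoke stalk and the highest fold change of all members, had 112, 108 and 48.4 CPM in high cuff pressure libraries 1, 2 and 3, against 65.3, 47.3 and 79.9 CPM in control libraries 1, 2 and 3. Libraries 1 and 2 of the high cuff pressure group lay above all controls and library 3 near the lowest control, and the log2 fold change was 0.48 ± 0.36 (adjusted p = 0.39). RSPH14, the highest spoke gene per length at 128 ± 57.9 CPM per kb with high cuff pressure and 151 ± 22.8 CPM per kb in controls (SD, n = 3 each), had a log2 fold change of -0.24 ± 0.37. CFAP61, a protein at the spoke base, had 95.03, 49.2 and 29.7 CPM with high cuff pressure and 101, 161 and 159 CPM in controls and no overlap, with a log2 fold change of -1.28 ± 0.42 (adjusted p = 0.10) with edgeR and an adjusted p of 0.033 with DESeq2.

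**Figure D2:**
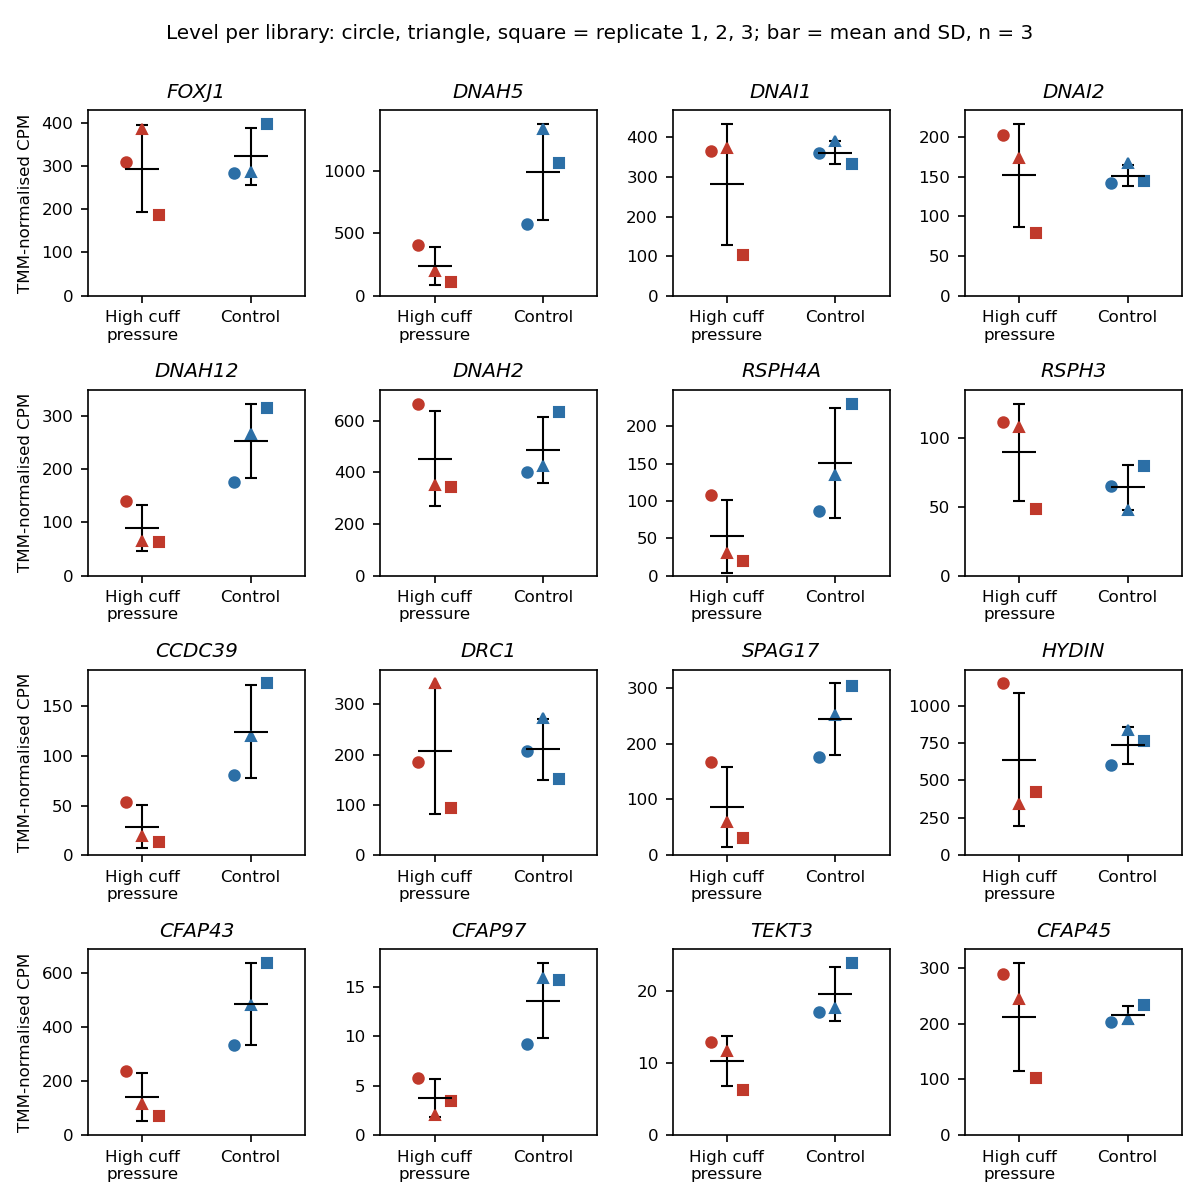
TMM-normalised CPM of 16 members in each library, high cuff pressure left and control right in every panel, with circles, triangles and squares for replicates 1, 2 and 3 and bars for the mean and SD (n = 3). DNAH5, DNAH12, CCDC39, SPAG17, CFAP43, CFAP97 and TEKT3 show no overlap between groups, while FOXJ1, DNAI1, DNAI2, DNAH2, RSPH4A, RSPH3, DRC1, HYDIN and CFAP45 overlap, with the high cuff pressure square lowest in most of them.

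CCDC39, which with CCDC40 forms the molecular ruler that spaces the arms and spokes along the doublet, had the lowest fold change of all members. It had 53.5, 19.2 and 13.6 CPM in high cuff pressure libraries 1, 2 and 3, against 80.4, 119 and 173 CPM in control libraries 1, 2 and 3. All high cuff pressure values were below all controls, and the log2 fold change was -2.11 ± 0.54 (adjusted p = 0.06) with edgeR and -2.11 with DESeq2 (adjusted p = 0.0018). DRC1 and DRC7, subunits of the nexin-dynein regulatory complex, overlapped between groups. DRC7, the highest of this class per length, had 527, 490.03 and 219 CPM with high cuff pressure and 511, 549 and 724 CPM in controls, with library 3 alone far below, and a log2 fold change of -0.53 ± 0.37 (adjusted p = 0.36). DRC1 had 185, 342 and 94.5 CPM with high cuff pressure and 207, 273 and 151 CPM in controls, with its highest and lowest values both in the high cuff pressure group, and a log2 fold change of -0.02 ± 0.45.

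The central apparatus was the class in which the largest share of members did not overlap. All 8 genes had negative estimates (median -0.91). In 5 of the 8 (62.5%, against 18.7% of all genes tested) every high cuff pressure library lay below every control. These were SPAG17, CFAP70, CFAP69, SPAG6 and CFAP221, and none of them passed the threshold. SPAG17, a central pair projection protein, had 167, 59.7 and 31.1 CPM in high cuff pressure libraries 1, 2 and 3, against 175, 252 and 304 CPM in control libraries 1, 2 and 3. Library 1 was close to the lowest control and libraries 2 and 3 well below it, and the log2 fold change was -1.50 ± 0.57 (adjusted p = 0.13) with edgeR and -1.50 with DESeq2 (adjusted p = 0.045). CFAP70 had 83.5, 51.7 and 27.1 CPM with high cuff pressure and 99.6, 113 and 148 CPM in controls, and a log2 fold change of -1.15 ± 0.39 (adjusted p = 0.11) with edgeR and an adjusted p of 0.045 with DESeq2. SPAG6, a repeat protein of the central pair and the highest of this class per length, had 355, 182 and 125 CPM with high cuff pressure and 361, 356 and 459.6 CPM in controls, and a log2 fold change of -0.83 ± 0.39 (adjusted p = 0.20). For SPAG6, high cuff pressure library 1 was just under the lowest control. CFAP54 had a log2 fold change of -1.17 ± 0.51 with overlap through high cuff pressure library 1. HYDIN, a very large projection protein, had 1149.98, 342 and 425 CPM in high cuff pressure libraries 1, 2 and 3, against 601, 838 and 767 CPM in control libraries 1, 2 and 3. Its library 1 was the highest of the 6 and libraries 2 and 3 were below every control, and the log2 fold change was -0.20 ± 0.47 (adjusted p = 0.81). CFAP65 had a log2 fold change of -0.19 ± 0.34.

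Tektins and the proteins inside the doublets were nearer to the controls. All 10 had negative estimates (median -0.39), none at or below -1. For 3 of them (TEKT3, CFAP53 and CFAP126) the groups did not overlap (30%, against 18.7% of all genes tested). TEKT3, a tektin, had 12.9, 11.7 and 6.29 CPM in high cuff pressure libraries 1, 2 and 3, against 17.1, 17.7 and 23.9 CPM in control libraries 1, 2 and 3. The log2 fold change was -0.93 ± 0.34 (adjusted p = 0.12), and high cuff pressure library 3 was lowest. CFAP126, an inner doublet protein and the most abundant member per length, averaged 323 ± 111 CPM per kb with high cuff pressure and 428 ± 19.5 CPM per kb in controls (SD, n = 3 each). It had 209, 204 and 104 CPM in high cuff pressure libraries 1, 2 and 3, against 231, 217 and 238 CPM in control libraries 1, 2 and 3, so that libraries 1 and 2 came close to the lowest control, and the log2 fold change was -0.41 ± 0.29 (adjusted p = 0.38). CFAP161 followed it per length at 296 ± 151 CPM per kb with high cuff pressure and 358 ± 75.9 CPM per kb in controls (SD, n = 3 each), with a log2 fold change of -0.27 ± 0.39. CFAP52, TEKT1, TEKT5, TEKT2, CFAP20 and CFAP45 overlapped between groups, with log2 fold changes of -0.78 to -0.02.

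The other CFAP genes ranged in log2 fold change from -1.85 to 0.39, with a median of -0.90 over 11. CFAP43, a protein of the tether that anchors inner arm motors, had 238, 114 and 68.7 CPM in high cuff pressure libraries 1, 2 and 3, against 333, 482 and 635 CPM in control libraries 1, 2 and 3. The groups did not overlap, and the log2 fold change was -1.79 ± 0.48 (adjusted p = 0.065) with edgeR and -1.79 with DESeq2 (adjusted p = 0.0034). CFAP44, its partner in the tether, had 118, 66.1 and 26.6 CPM with high cuff pressure and 107, 143 and 178 CPM in controls, overlapping through library 1, and a log2 fold change of -1.03 ± 0.49. CFAP97 was among the scarcest members, at 5.82, 2.001 and 3.49 CPM in high cuff pressure libraries 1, 2 and 3, against 9.23, 15.9 and 15.7 CPM in control libraries 1, 2 and 3. All its high cuff pressure values lay below all controls, and the log2 fold change was -1.85 ± 0.45 (adjusted p = 0.054) with edgeR and -1.85 with DESeq2 (adjusted p = 0.0015). CFAP58, CFAP36 and CFAP299 did not overlap either, with log2 fold changes of -1.41 ± 0.57, -1.18 ± 0.44 and -0.90 ± 0.52. CFAP92 had 225, 290.4 and 129 CPM in high cuff pressure libraries 1, 2 and 3, against 199, 148 and 145 CPM in control libraries 1, 2 and 3. Libraries 1 and 2 of the high cuff pressure group were the highest of the 6 and library 3 the lowest, the log2 fold change was 0.39 ± 0.32 (adjusted p = 0.45), and its direction turned under total-count scaling and on the deposited FPKM. CFAP100, with the second shortest gene model of the members (588 bp), had a log2 fold change of -0.07 ± 0.55. CFAP57, CFAP157 and CFAP99 overlapped, at -0.48, -0.36 and -0.15.

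Gene model length, recovered from the ratio of each count to its FPKM, ran from 534 to 24252 bp over the members. The median log2 fold change was -0.38 for the 17 tested members under 2 kb, -0.59 for the 18 from 2 to 5 kb and -0.77 for the 18 over 5 kb, beside 0.11, -0.08 and -0.18 for all genes tested in the same bins (6393, 5840 and 1491 genes). The step with length thus lay on top of a lower level in every bin, and all genes stepped the same way. Across the 53 members the Pearson correlation of log2 fold change with log2 model length was -0.23 (Spearman -0.23), and across all 13724 genes -0.16 (Spearman -0.17). These are correlations across genes, which are not independent replicates.

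Between libraries the length pattern differed. In high cuff pressure library 1 the members' median difference from the control mean was -0.13, -0.15 and -0.12 from the shortest to the longest bin. In high cuff pressure library 2 it was -0.04, -0.36 and -1.08, and in high cuff pressure library 3 it was -1.17, -1.56 and -1.93. The short members were thus near the control mean in library 2 and far below it in library 3, while all genes under 2 kb stood at 0.01, 0.19 and 0.11 in the same 3 libraries. With a smooth length trend removed in each library, the median log2 fold change was -0.42 over the members and 0.02 over all genes tested. From the shortest to the longest bin it was -0.38, -0.51 and -0.42, so it no longer fell with each bin. In that fit 13 members were lower at an unadjusted p under 0.05, where 13.3% of all genes were, with DNAL1 in and DNAH7 out. After adjustment 0 members passed, where 1.57% of all genes passed as lower. Members with an estimate below 0 then numbered 40, against 47 before. The heavy chains DNAH1, DNAH2 and DNAH3 (0.02, 0.19 and 0.26), DRC1 (0.23), HYDIN (0.07), CFAP65 (0.05), TEKT2 (0.03) and CFAP45 (0.02) came to lie above 0, and RSPH9 (-0.02) below it.

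**Figure D3:**
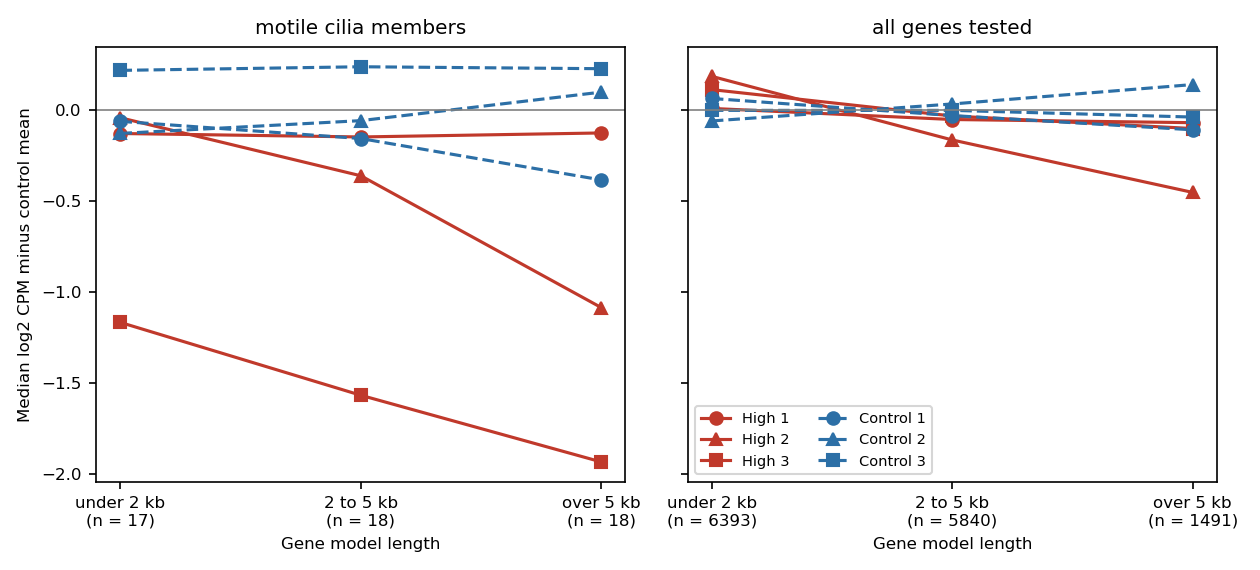
Median log2 CPM minus the control mean (vertical axis) in 3 bins of gene model length for the members (left) and all genes tested (right), 1 line per library, red solid for high cuff pressure and blue dashed for control. In high cuff pressure library 2 the members step from -0.04 to -1.08 with length, and in library 3 they lie between -1.17 and -1.93, while all genes stay between -0.45 and 0.19.

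The genomic span of the row, introns included, had the larger correlation with the fold change. Across the 53 members the correlation of log2 fold change with log2 span was -0.47 (Spearman -0.49), and across all genes tested -0.28 (Spearman -0.33). Inner arm heavy chains of similar model length are an example, picked after their values were seen. DNAH12 (197 kb), DNAH7 (380.5 kb) and DNAH6 (314 kb) had log2 fold changes of -1.51, -1.23 and -0.80. DNAH1 (71.2 kb) and DNAH2 (119 kb) had -0.33 and -0.10. Within neither set did the order follow the span. Exceptions ran both ways. HYDIN spans 353 kb with -0.20 and DNAH3, the remaining inner arm heavy chain, 183 kb with -0.17. RSPH4A spans 18.1 kb with -1.52 and CCDC39 42.6 kb with -2.11. The models of DNAH3 (23209 bp) and DNAH17 (24252 bp) are longer than those of the other heavy chains (11883 to 14365 bp), so their levels per length are less certain.

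**Figure D4:**
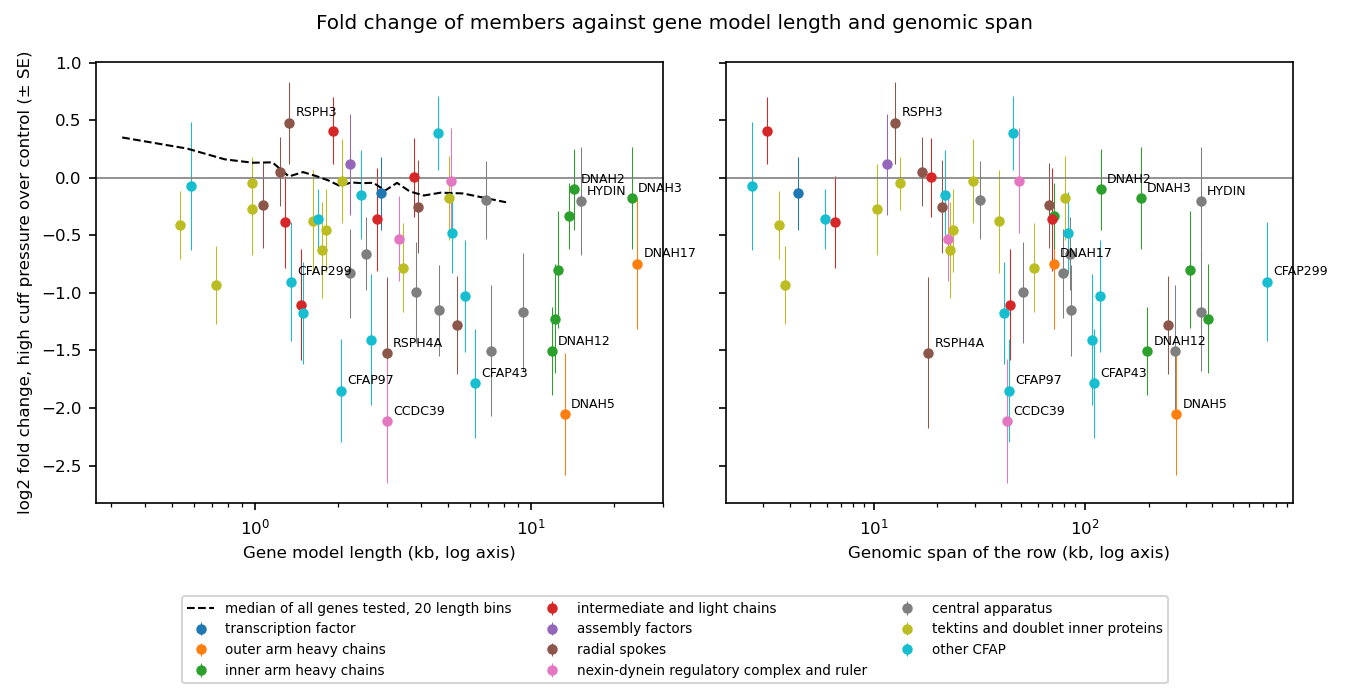
Log2 fold change, high cuff pressure over control, with SE, of the 53 tested members against gene model length (left) and genomic span (right), both on log axes, coloured by structure class. The dashed line is the median of all genes tested in 20 length bins. DNAH5 and DNAH12 lie low and DNAH2 and HYDIN near 0 at similar lengths, the longer DNAH3 model also lies near 0, and CCDC39, CFAP97 and RSPH4A are low at moderate length.

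Ratios between members of 1 structure within a library do not depend on how the libraries are scaled. A trend with gene model length or genomic span within a library does not cancel in them, and its part in the ratios was not tested. DNAH5 (13245 bp) is longer than DNAI2 (3766 bp), and SPAG17 (7192 bp) longer than SPAG6 (2208 bp). DNAH12 (11883 bp) is shorter than DNAH2 (14365 bp), CCDC39 (3018 bp) than DRC1 (5138 bp) and RSPH4A (2999 bp) than RSPH1 (3908 bp). By genomic span DNAH5 (270 kb) is longer than DNAI2 (18.7 kb) and SPAG17 (267 kb) than SPAG6 (78.9 kb). DNAH12 (197 kb) is longer by span than DNAH2 (119 kb), the reverse of their model lengths. CCDC39 (42.6 kb) is shorter by span than DRC1 (48.9 kb), and RSPH4A (18.1 kb) than RSPH1 (20.99 kb). The pairs were chosen after the values had been seen, so the ratios are descriptions. DNAH5 over DNAI2, a motor and an intermediate chain of the same arm, was 0.571, 0.329 and 0.392 in high cuff pressure libraries 1, 2 and 3, against 1.15, 2.28 and 2.08 in control libraries 1, 2 and 3, in CPM per kb. All 3 high cuff pressure ratios lay below all controls, library 1 included, although DNAI2 itself did not separate the groups. DNAH12 over DNAH2, a pair of inner arm heavy chains, was 0.253, 0.223 and 0.223 in high cuff pressure libraries 1, 2 and 3, against 0.531, 0.763 and 0.604 in control libraries 1, 2 and 3. The high cuff pressure ratios were close to each other and below all controls. SPAG17 over SPAG6, both of the central apparatus, was 0.145, 0.1004 and 0.0766 in high cuff pressure libraries 1, 2 and 3, against 0.149, 0.217 and 0.203 in control libraries 1, 2 and 3, and CCDC39 over DRC1 was 0.494, 0.0956 and 0.244 in high cuff pressure libraries 1, 2 and 3, against 0.662, 0.746 and 1.95 in control libraries 1, 2 and 3. Both again separated the groups, the first by a small gap at library 1. RSPH4A over RSPH1, both of the spoke head, was 0.571, 0.117 and 0.239 in high cuff pressure libraries 1, 2 and 3, against 0.434, 0.704 and 0.976 in control libraries 1, 2 and 3, and overlapped through library 1.

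**Figure D5:**
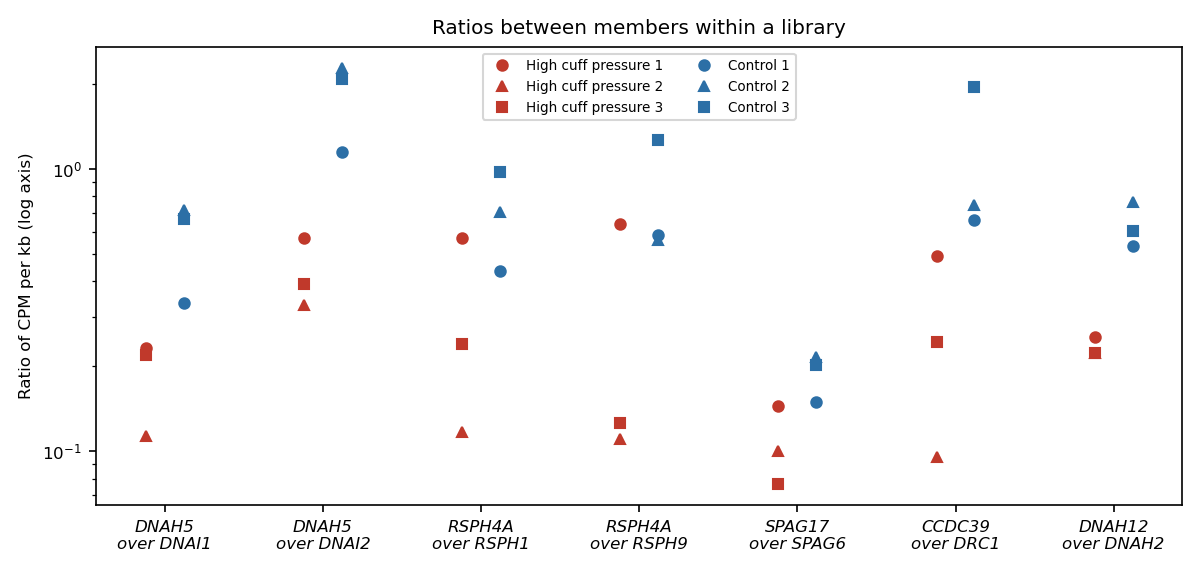
Ratio of CPM per kb between 2 members within each library (log axis), high cuff pressure in red left of control in blue for each pair, with circles, triangles and squares for replicates 1, 2 and 3. The ratios of DNAH5 to DNAI1 and to DNAI2, SPAG17 to SPAG6, CCDC39 to DRC1 and DNAH12 to DNAH2 do not overlap between groups, and those of RSPH4A to RSPH1 and to RSPH9 do.

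Of the members, 43 lie on named chromosomes and 11 on unplaced scaffolds, in the coordinates of the deposited table, for which the sources used here name no genome build. DNAH5 is on chromosome 11, 38536981 to 38807128, DNAH12 on chromosome 9, 24158190 to 24355470, CCDC39 on chromosome 14, 76248312 to 76290909 and SPAG17 on chromosome 13, 46059508 to 46326781. CFAP43 (chromosome 18, 52060906 to 52171647) and CFAP58 (chromosome 18, 52274662 to 52382228) are near each other. Another row of the table overlaps 15 members, and for 13 of them, among which are RSPH4A, HYDIN, DNAI1, DNAL1, DRC1 and RSPH9, that row is on the other strand. Their counts are uncertain, because the sources used here do not give the strand setting of the counting. DNAH5, DNAH12, CCDC39, SPAG17, CFAP43, CFAP61, CFAP70 and CFAP97 overlap no other row.

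Other genes of motile cilia, from a list of docking complex, multiciliogenesis and doublet genes with other symbols, lay in the same range. Of 78 with a row, 77 were tested and 0 passed in either direction. Of the 77, 66 had log2 fold changes below 0 (85.7%, against 50.5% of all genes tested), and the median was -0.60. At an unadjusted p under 0.05, 16 were lower (20.8%, against 13.6% of all genes) and 0 higher, against 15.6% of all genes. Their summed level was 9482, 7719 and 3498 CPM in high cuff pressure libraries 1, 2 and 3, against 8388, 9229 and 11066 CPM in control libraries 1, 2 and 3, with library 3 again lowest and library 1 again within the control range. The 6 measured subunits of cytoplasmic dynein, the motor of intracellular transport, had a median log2 fold change of -0.22, with 0 past the threshold.

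In the authors' deposited table, 53 members appear, and 7 of them (CCDC39, DNAH5, CFAP43, CFAP97, DNAH12, CFAP61 and SPAG17) carry a q-value under 0.05 and a mean FPKM at least 2-fold lower with high cuff pressure, against 3.67% of the genes in that table called lower by the same rule, and 0 are called higher. For DNAH5 the authors' deposited table gives mean FPKM of 15.8 with high cuff pressure and 87.9 in controls (q = 0.0014). For CCDC39 the authors' deposited table gives 8.36 FPKM with high cuff pressure and 48.1 FPKM in controls (q = 0.0012). Among the authors' deposited enrichment terms, axoneme assembly held 7 changed genes (6 lower and 1 higher) of 32, with a rich factor of 3.06 and a q-value of 0.11, and SPAG17, CCDC39 and DNAH5 are the members among them. Cilium movement held 5 changed genes of 32 in the authors' deposited table (q = 0.52), axoneme 7 of 57 with a rich factor of 1.72 (q = 0.75), and motile cilium 7 of 77 with a rich factor of 1.27 (q = 1), none of the 7 a member.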

How the data were processed

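Libraries were assigned to groups by their names in the labels. The control library numbered 3 carries the title S4, and no sample has the title S3. Per the submitters' processing notes, the tools were StringTie 1.3.3b, HISAT2 2.0.4 and edgeR, while no source used here gives the genome build, the annotation, the strand setting or the options of the counter. Raw counts and the authors' FPKM come from the deposited gene table, per the file headers. Their comparison and enrichment tables add p-values and q-values and the rich factor, a ratio of shares computed by the authors.

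The test was edgeR 4.0.16 under R 4.3.3 (filterByExpr, TMM, glmQLFit with robust estimation, glmQLFTest). P-values were adjusted by Benjamini-Hochberg over the 13724 genes tested, with a threshold of 0.05, and measure the spread between these libraries, since the labels give 3 per group without naming animals. TMM-normalised CPM were used throughout, with a prior count of 2 on the log2 scale, and an SE is the absolute log2 fold change over the square root of F. The detection floor covers counting error only. The alternatives were DESeq2 1.42.0, limma 3.58.1 (voom, and trend on log2 FPKM with a pseudocount of 1 or 0.1), other scalings and filters, a length trend removed (lowess span 0.5), a replicate block and leaving out each library. Named members were FOXJ1, the 5 lowest and 5 highest fold changes, the smallest p and highest level per kb in each class, and the 3 longest and 3 shortest models. Members named beyond these, and the pairs in the ratios, were picked after their values were seen. The members and lists were chosen with earlier results of these data known. Libraries of a group differed well beyond sampling noise (chi-square 56.1 to 137 for each degree of freedom).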

Additional observations from a re-analysis of the deposited data

How the results depend on the processing

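No member passed as higher under any alternative run, and the median log2 fold change of the members stayed below 0 in all of them (main value -0.45). The count of members passing as lower, 0 with edgeR, was 8 with DESeq2, 2 with limma-voom, 2 with no filter on low counts, 8 with total counts only, 16 on log2(FPKM + 1) and 12 on log2(FPKM + 0.1). Leaving out each library gave 0 to 18, with 18 without high cuff pressure library 1, where 1261 of 14064 genes (8.97%) passed as lower. The other 5 fits gave 0 members, but only 0% to 0.41% of all genes passed as lower in them. Those counts of 0 therefore say little about the members. The share of all genes passing as lower was 2.21% with limma-voom, 1.24% with no filter, 9.04% with total counts only, 13.3% on log2(FPKM + 1) and 10.99% on log2(FPKM + 0.1). Members lower at an unadjusted p under 0.05 (13) were 28 with total counts only (28.1% of all genes), 29 in each FPKM setting (22.2% to 30.1% of all genes) and 6 to 26 leaving out a library, and the median was -0.96 on log2(FPKM + 0.1) and -0.89 to -0.18 leaving out a library. Over all genes, 503 were higher and 222 lower, or 30.6% lower among those called. DESeq2 called 1461 higher and 1170 lower (44.5% lower), total counts only 1241 lower (76.1%), log2(FPKM + 1) 1748 lower (80.1%), log2(FPKM + 0.1) 1448 lower (78.2%) and log2(FPKM + 1) without a filter 127 higher (62.8% lower). Total counts only moved the median of all genes to -0.40 and that of the members to -0.88, a difference of -0.47. Leaving out each library gave 0 to 1362 higher and 0 to 1261 lower genes.

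With the replicate block, 198 genes were higher, 46 lower and 0 members passed. Replicate numbers did not pair the libraries (same-number correlations -0.28, -0.20 and -0.23, and no library correlated best with its own number).

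CFAP92 was -0.015 with total counts only and -0.066, -0.069 and -0.066 in the FPKM settings. DNAAF1 was -0.085 with limma-voom, -0.32 with total counts only, -0.079 with the replicate block and -0.48, -0.49 and -0.48 in the FPKM settings. DNAL4 was -0.023, -0.027 and -0.023 there. RSPH9 was -0.38 with total counts only, -0.021 with the length trend removed and -0.36, -0.36 and -0.36 in the FPKM settings. With the length trend removed, DNAH2 was 0.19, DNAH3 0.26 and HYDIN 0.070. Leaving out a library, the ranges were -0.72 to 0.36 for CFAP100, -0.34 to 0.50 for DNAAF1, -0.48 to 0.13 for DNAH2, -0.74 to 0.17 for DNAH3, -0.61 to 0.036 for DNAI1, -0.38 to 0.11 for FOXJ1, -0.93 to 0.10 for HYDIN, -0.48 to 0.10 for RSPH14 and -0.25 to 0.26 for RSPH9. For the named members, 38 values turned direction, 384 kept direction and side of the threshold and 46 came to pass it. The cause was not tested. Counts of a tested member ran from 12 to 20818 per library.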
